A study of Ovis aries with 20 samples.

Results

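Interferon response genes are the transcripts that vertebrate cells switch on when interferon binds its receptor. A list of 37 such genes was looked up by symbol in the table of normalized gene counts of sheep ovarian follicles, and 33 of the 37 were present by name among 28524 genes. BST2, OAS2, SAMD9 and USP18 had no row under those symbols and have no value among the 33. The genes were chosen by name and not from their levels, though earlier results on these libraries were known when they were chosen.

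The follicles came from 10 adult female sheep aged 21 months. The prenatal T group is 5 offspring (sheep 209, 210, 230, 276 and 315) of ewes injected into muscle 2 times per week with 100 mg of testosterone propionate, or 1.2 mg/kg, between days 30 and 90 of gestation. The control group is 5 offspring (sheep 139, 224, 244, 246 and 268) of ewes given the vehicle over the same days. In both groups the cycle was synchronized with 10 mg of prostaglandin F2α given 2 times, 11 days apart, and ovaries were taken 18 h after the last dose, so the exposure ended long before the RNA was collected. Granulosa cells, which line the antral follicle, and theca cells, which surround it, were cut by laser from 14 µm frozen sections, and the cells of several follicles of an animal were pooled by layer. This gave 5 granulosa libraries of prenatal T sheep, 4 of control sheep, and 5 theca libraries of each. The granulosa sample of sheep 139 was not analysed here, so 9 animals had both layers. The comparison asks whether exposure before birth left a difference in the transcripts of each layer in the adult.

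In the pathway, viral RNA bound by cytosolic sensors leads to the making of type I interferon, whose receptor activates the kinases JAK1 and TYK2 and a transcription factor complex that includes STAT2 and IRF9. That factor drives antiviral effectors, more of the sensors themselves, and the ubiquitin-like protein ISG15 with the enzymes that attach it and remove it. In ruminants the conceptus signals pregnancy with a type I interferon, interferon tau, and the endometrium and corpus luteum are known to answer with these genes. Bulk libraries hold a mixture of cells, and a gain in cells that express a gene and a gain in RNA per cell cannot be told apart here.

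Levels are given as normalized counts, gene counts scaled by the size factor of each library, and 1 read was worth 0.556 to 1.27 of them. Libraries held 12699124 to 26028146 reads. Of the granulosa marker genes 8 of 10 were called higher in granulosa than in theca, and 12 of 12 theca markers were called lower. Of all genes 28.8% were called higher and 27.8% lower. Both libraries of sheep 209 stood apart from their labels. In the library labelled granulosa AMH and FSHR, defining genes of granulosa cells, were at 0, against 2629 to 7774 and 1793 to 3281 in granulosa of the animals other than 209 and 315. The same library held 33236 of the neutrophil gene S100A9 and 34370.5 of the epithelial keratin KRT19, against 0.556 to 34.5 and 12.8 to 135. In the library labelled theca, CYP17A1 and INSL3, defining genes of theca cells, were at 0 and 1.27, against 585 to 2523 and 3546 to 18648 in the 8 other animals, and S100A9 stood at 14299, against 3.01 to 15.2. Not all theca markers were lost in that library. Of 12 theca markers 2 were at 0, and their median log2 difference from the 8 other animals was -1.23. The sum of the 12 was 370526, against 598629 to 871934 in those animals. Granulosa and theca of sheep 209 mean the libraries so labelled. The group comparisons of the 33 genes are given with this animal and without it.

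The level of the interferon response genes differed more among prenatal T animals than between the groups. The mean of log2(normalized count + 1) over the 33 genes was 9.44, 7.28, 6.79, 6.32 and 11.60 in granulosa of prenatal T sheep 209, 210, 230, 276 and 315, against 6.87, 6.96, 6.88 and 6.78 in granulosa of control sheep 224, 244, 246 and 268. In theca it was 8.96, 8.09, 7.63, 7.47 and 12.07 in the same prenatal T sheep, against 8.46, 7.80, 7.63, 7.60 and 7.65 in control sheep 139, 224, 244, 246 and 268. Sheep 315 was highest and sheep 209 next in both layers. Of the other 3 prenatal T animals, in granulosa sheep 210 lay above, sheep 230 inside and sheep 276 below the control range, and in theca sheep 210 and 230 lay inside it and sheep 276 below. The group means were 8.29 in prenatal T and 6.87 in control granulosa, and 8.84 in prenatal T and 7.83 in control theca. In granulosa the standard deviation over animals was 2.21 in the prenatal T group and 0.077 in the control group (n = 5 and 4). The corresponding values in theca were 1.89 and 0.36 (n = 5 each). Summed over the 33 genes, normalized counts reached 221496 in granulosa and 298776 in theca of sheep 315, against 13325 to 17846 and 15474 to 21513 in the animals other than 209 and 315.

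**Figure D1:**
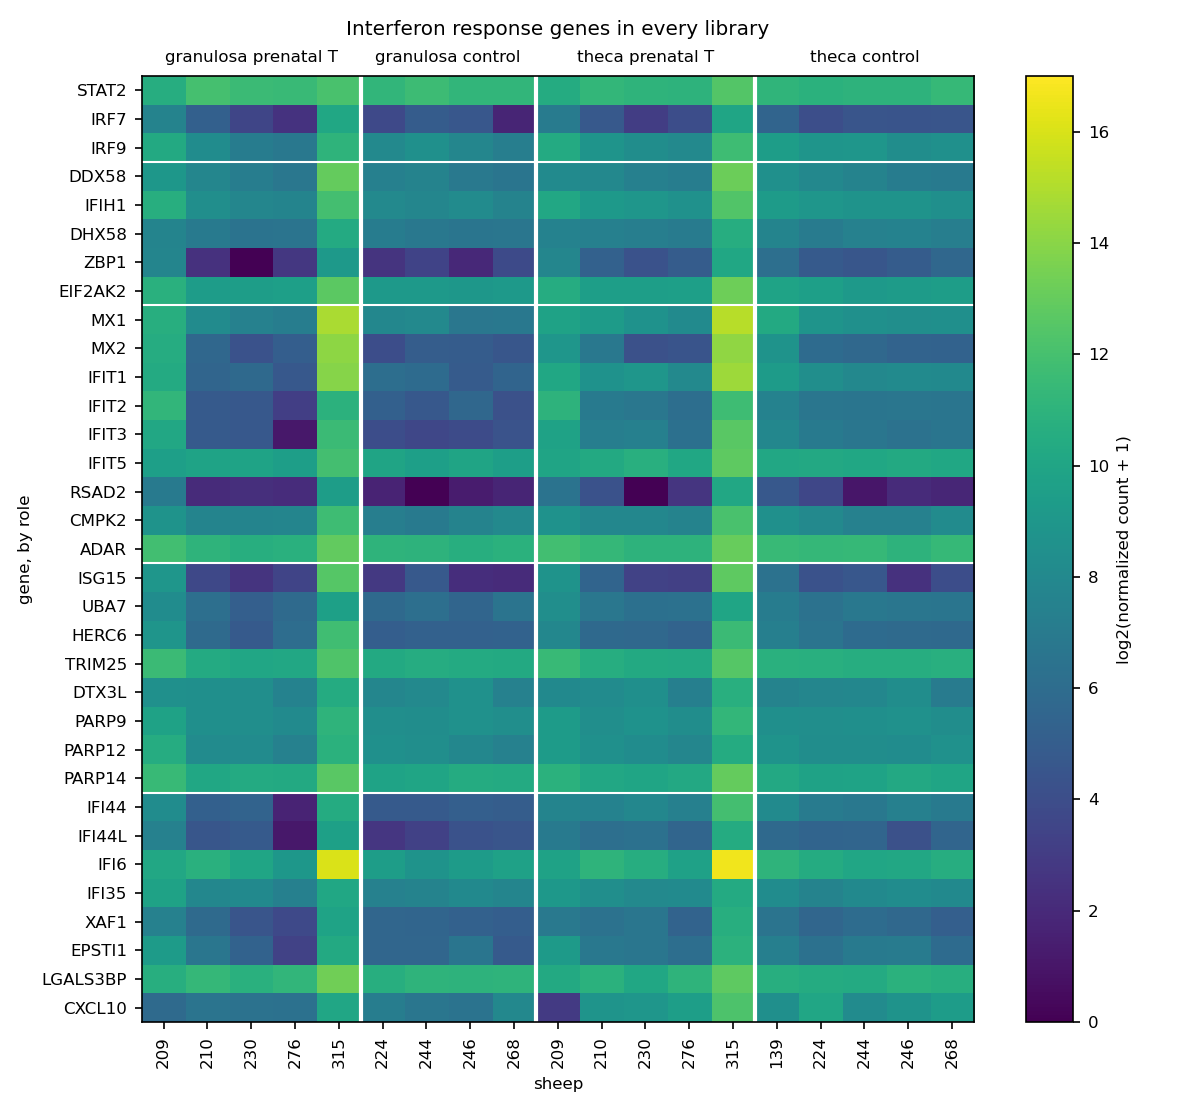
Each row is 1 of the 33 interferon response genes, ordered by role, each column is 1 library named by its sheep, and colour gives log2(normalized count + 1). The columns of sheep 315 are the brightest of both layers over nearly all rows, and those of sheep 209 come next for most genes. In both layers this does not hold for STAT2, CXCL10, IFI6, IFIT5, DTX3L and LGALS3BP, and in theca also not for MX1, IFI44, DDX58 and DHX58.

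**Figure D2:**
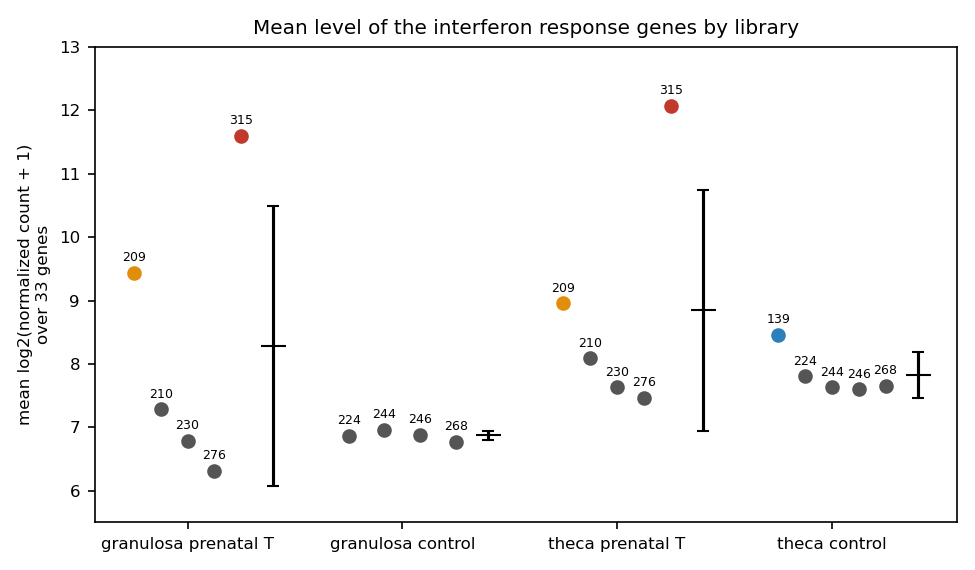
Mean of log2(normalized count + 1) over the 33 genes in each library (points, named by sheep), with the mean ± SD over libraries of a group (bars, n = 5, 4, 5 and 5 from left to right). Sheep 315 stands at 11.60 in granulosa and 12.07 in theca, while the 4 granulosa controls lie between 6.78 and 6.96.

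In the values that follow, prenatal T sheep are listed in the order 209, 210, 230, 276 and 315. Control sheep are in the order 224, 244, 246 and 268 for granulosa and 139, 224, 244, 246 and 268 for theca. Here and below, multiples of a median are ratios of normalized count + 1, which makes them smaller for genes of few reads. Among the transcription factors, STAT2, which carries the activation domain of the interferon-driven complex, stood at 1513, 4019, 3077, 2973 and 4482 in prenatal T granulosa, against 2283, 3155, 2321 and 2315 in control granulosa. In theca STAT2 was at 1425, 2466, 2087, 2069 and 5483 in prenatal T sheep, against 2181, 1829, 2047, 1991 and 2692 in control sheep. It was lowest in sheep 209 and highest in sheep 315 in both layers, and it moved least of all 33 genes in sheep 315, by 0.59 in granulosa and 1.40 in theca on the log2 scale from the median of the animals other than 209 and 315. IRF9, the DNA-binding part of the complex, had 1308, 308, 141, 111 and 2139.7 in prenatal T granulosa, against 255, 366, 218 and 151 in control granulosa. In prenatal T theca IRF9 had 1374, 445, 316, 251 and 3447, against 700.2, 461, 490.1, 322 and 375 in control theca. Sheep 209 and 315 were above every control animal in both layers, while sheep 230 and 276 were below every one of them in both. IRF7, which amplifies interferon production and is itself induced, was also highest in sheep 315 and next in sheep 209 in both layers. It was at 196, 36.6, 10.8, 4.58 and 1109.5 in prenatal T granulosa, against 12.8, 29.8, 23.8 and 2.43 in control granulosa. Its theca values were 135, 25.6, 7.33, 15.4 and 1036 in prenatal T sheep, against 44.4, 15.9, 21.1, 20.6 and 21.8 in control sheep. Granulosa of sheep 315 held 80.6 times the median of the animals other than 209 and 315, and theca 47.5 times, with the other 3 prenatal T sheep in or below the control range except for sheep 210 in granulosa.

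The sensors of foreign RNA and DNA followed. DDX58, which encodes RIG-I, stood at 517, 222, 144, 108 and 7946 in prenatal T granulosa, against 166, 191, 118 and 98.1 in control granulosa. In theca DDX58 stood at 281, 244, 166, 143 and 9269 in prenatal T sheep, against 365, 240.1, 189.8, 139.6 and 123 in control sheep. Sheep 315 was 54.8 and 51.9 times the median of the others in granulosa and theca, and theca of sheep 209 lay below that of control sheep 139. IFIH1, the long-RNA sensor MDA5, had 1639.7, 334, 220.4, 206 and 3789 in prenatal T granulosa, against 255, 225, 291 and 195 in control granulosa. Theca levels of IFIH1 were 1156, 595, 480.4, 393 and 5426 in prenatal T sheep, against 641, 487, 418, 418 and 357 in control sheep. Here sheep 209 and 315 were both above all controls in both layers. The remaining prenatal T sheep lay within the control range, except for sheep 210 in granulosa, which was above all controls. EIF2AK2 encodes PKR, the kinase that halts translation on binding double-stranded RNA. Its granulosa values were 1782, 687, 708, 755 and 6879 in prenatal T sheep, against 587, 591, 509 and 599 in control sheep. In granulosa all 5 prenatal T animals were above all 4 controls, the one gene of the 31 tested there to show this. Its theca values were 1478, 750.2, 745, 767 and 9805 in prenatal T sheep, against 924, 779, 581, 637 and 701 in control sheep, where controls 139 and 224 lay above sheep 210, 230 and 276. DHX58, the regulator LGP2 of these sensors, had 1343 in granulosa and 1530.3 in theca of sheep 315 and 205 and 182 in those of sheep 209, against 89.1 to 142 in granulosa and 132 to 203 in theca of the other animals. ZBP1, a sensor of Z-form nucleic acid, had 560.1 in granulosa and 1110.5 in theca of sheep 315 and 208 and 219 in those of sheep 209, against 0 to 12.97 in granulosa and 18.8 to 74.04 in theca of the other animals. ZBP1 was low in granulosa outside sheep 209 and 315, and a single library, sheep 230, had 0 reads.

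Antiviral effectors showed the widest range. MX1, a GTPase that traps viral particles, stood at 1620.2, 287, 180.3, 149 and 29256 in prenatal T granulosa, against 233, 260.3, 106 and 109 in control granulosa. Theca held 883, 636, 399.8, 284 and 36177 in prenatal T sheep, against 1257, 437, 368, 335 and 359.8 in control sheep. Sheep 315 had 161 times the median of the others in granulosa and 94.1 times in theca, and the next highest theca library was control sheep 139. MX2, its paralog, had 1492, 50.6, 18.6, 32.1 and 17443 in prenatal T granulosa, against 15.01, 31.98, 29.6 and 22.7 in control granulosa. In theca MX2 had 477, 109, 17.8, 20.5 and 18425 in prenatal T sheep, against 426, 60.7, 52.2, 42.2 and 40.2 in control sheep. In theca, sheep 230 and 276 lay below every control animal, sheep 210 above 4 of the 5, and sheep 315 at 384 times the median of the others. IFIT1, which binds RNA with foreign 5′ ends, was at 1353, 46.3, 53.9, 25.2 and 15383 in prenatal T granulosa, against 70.6, 60.7, 28.2 and 42.97 in control granulosa. It was at 1132, 398, 485, 258 and 23125 in prenatal T theca, against 644, 332, 245, 285 and 269 in control theca. Sheep 209 and 315 were above every control in both layers. The remaining prenatal T sheep lay within the control range, except for sheep 276 in granulosa, which was below every control. IFIT3, which stabilizes IFIT1, was at 1159, 26.9, 24.5, 1.15 and 3149 in prenatal T granulosa, against 15.6, 11.03, 13.7 and 19.5 in control granulosa. Sheep 276 had a single read of IFIT3 in granulosa, so this group held both the lowest and the highest animals. IFIT3 in theca was at 884, 155, 169, 74.7 and 6407 in prenatal T sheep, against 232, 121, 99.4, 85.5 and 98.7 in control sheep.

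RSAD2, which encodes the antiviral enzyme viperin, was low in both layers outside sheep 209 and 315. It stood at 124, 3.23, 3.92, 3.44 and 699.8 in prenatal T granulosa, against 2.22, 0, 1.45 and 2.43 in control granulosa. In theca RSAD2 stood at 86.04, 18.1, 0, 5.12 and 1143 in prenatal T sheep, against 24.3, 11.2, 1.004, 3.25 and 2.62 in control sheep. In granulosa every prenatal T value lay above every control value, but the gene did not reach the minimum needed for testing there, and sheep 210, 230 and 276 and all controls held only a few reads. The 2 libraries at 0 allow up to 3 reads each by counting error alone. CMPK2, the neighbour of RSAD2 that makes the substrate of viperin, had 3311 in granulosa and 4364 in theca of sheep 315 and 415 and 404 in those of sheep 209, against 130.1 to 253 in granulosa and 174 to 378 in theca of the other animals. ADAR, which edits double-stranded RNA and is expressed in all cells, moved little by comparison. ADAR stood at 3781, 2087, 1613, 1737 and 7712 in prenatal T granulosa, against 2106, 2072, 1622 and 1866 in control granulosa. It stood at 3755, 2548, 1999, 2062 and 8505 in prenatal T theca, against 2750.2, 2567, 2646, 2019 and 2718 in control theca. Sheep 209 and 315 were nevertheless above all other animals in both layers. IFIT2, a further RNA-binding member of its family, was the one gene of the 33 higher in sheep 209 than in sheep 315 in granulosa: 1919 in granulosa and 3413 in theca of sheep 315 and 2293 and 2041 in those of sheep 209, against 8.02 to 51.3 in granulosa and 68.6 to 185 in theca of the other animals. IFIT5, the member of that family nearest to the other animals in sheep 315, had 3834 in granulosa and 7029 in theca of sheep 315 and 773 and 964 in those of sheep 209, against 731 to 978 in granulosa and 1122 to 1658 in theca of the other animals. For IFIT5 sheep 209 was within or below the range of the other animals.

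ISG15, the ubiquitin-like modifier of the pathway, stood farthest above the median of the animals other than 209 and 315 in both layers of sheep 315. Its granulosa values were 488, 11.8, 4.898, 10.3 and 5934 in prenatal T sheep, against 6.11, 26.5, 3.61 and 3.24 in control sheep. Its theca values were 419, 43.8, 9.42, 8.19 and 7070.0 in prenatal T sheep, against 82.5, 18.7, 23.1, 4.33 and 14.8 in control sheep. Sheep 315 was at 834 times the median of the animals other than 209 and 315 in granulosa and at 400.4 times in theca, and the other 3 prenatal T sheep overlapped the controls in both. UBA7, the enzyme that activates ISG15, had 804 in granulosa and 1026 in theca of sheep 315 and 300.3 and 338 in those of sheep 209, against 34.3 to 91.6 in granulosa and 76.4 to 138 in theca of the other animals. HERC6, a candidate ISG15 ligase known from mouse, had 3466 in granulosa and 3078 in theca of sheep 315 and 460.3 and 232 in those of sheep 209, against 27.4 to 65.3 in granulosa and 41.98 to 161 in theca of the other animals. In theca its next highest animal after sheep 209 was control sheep 139. The identifier LOC101103965, which RefSeq's table for sheep assembly ARS-UI_Ramb_v3.0 names USP18, the protease that removes ISG15, stood at 381, 35.5, 35.3, 24.1 and 2547 in prenatal T granulosa, against 32.2, 29.8, 18.1 and 36.5 in control granulosa. The same identifier stood at 266, 139, 156, 167 and 3013 in prenatal T theca, against 253, 106, 92.4, 146 and 156 in control theca. It was highest in sheep 315 and next in sheep 209 in both layers, as ISG15 was, and is not counted among the 33. TRIM25, the ubiquitin ligase that acts on RIG-I, had 5145 in granulosa and 5892 in theca of sheep 315 and 3039 and 2823 in those of sheep 209, against 1064 to 1483 in granulosa and 1207 to 1809.8 in theca of the other animals. DTX3L, a ubiquitin ligase, and PARP9, its ADP-ribosylating partner, were highest in sheep 315 in both layers too. DTX3L had 1398 in granulosa and 1703 in theca of sheep 315 and 367 and 267 in those of sheep 209, against 179 to 393 in granulosa and 134 to 351 in theca of the other animals. PARP9 had 2090.0 in granulosa and 2456 in theca of sheep 315 and 875 and 655 in those of sheep 209, against 281 to 392.4 in granulosa and 318 to 410.3 in theca of the other animals. For DTX3L, sheep 209 lay inside the range of the other animals in both layers. PARP12, an ADP-ribosyltransferase of stress granules, had 1833 in granulosa and 1405 in theca of sheep 315 and 1446 and 648 in those of sheep 209, against 176 to 366 in granulosa and 225 to 423 in theca of the other animals. PARP14, a further ADP-ribosyltransferase, had 6533 in granulosa and 8004 in theca of sheep 315 and 2801 and 1870.1 in those of sheep 209, against 926 to 1397 in granulosa and 901 to 1244 in theca of the other animals. Both were highest in sheep 315 and next in sheep 209.

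The remaining genes include secreted and mitochondrial products. IFI6, a small mitochondrial and endoplasmic reticulum protein that protects infected cells, had 66481 in granulosa and 100421 in theca of sheep 315 and 1181 and 898 in those of sheep 209, against 428 to 1764 in granulosa and 846 to 2151 in theca of the other animals. In both layers of sheep 209 it lay inside the range of the animals other than 315, so the 2 high animals parted at this gene. IFI44, a protein of uncertain biochemical role, had 1422 in granulosa and 3809 in theca of sheep 315 and 309.5 and 204 in those of sheep 209, against 2.29 to 41.1 in granulosa and 112 to 274 in theca of the other animals. IFI44L, its paralog, had 803 in granulosa and 1388 in theca of sheep 315 and 179.5 and 128 in those of sheep 209, against 1.15 to 27.4 in granulosa and 17.3 to 79.5 in theca of the other animals. Both had 1 or 2 reads in granulosa of sheep 276 and in theca both were above every other library in sheep 315. IFI35 had 1109.5 in granulosa and 1364 in theca of sheep 315 and 901 and 529 in those of sheep 209, against 171 to 270.3 in granulosa and 194 to 343 in theca of the other animals. XAF1, which promotes cell death, had 946 in granulosa and 1643 in theca of sheep 315 and 176 and 118 in those of sheep 209, against 12.6 to 57.1 in granulosa and 34.9 to 103 in theca of the other animals. EPSTI1, first known as a gene that epithelial cells switch on beside stroma, had 1287 in granulosa and 1949 in theca of sheep 315 and 636 and 609.9 in those of sheep 209, against 9.17 to 103 in granulosa and 61.1 to 163 in theca of the other animals. These 3 genes were all highest in sheep 315 in both layers. LGALS3BP, a secreted glycoprotein that binds galectins, had 10229.7 in granulosa and 6894 in theca of sheep 315 and 1630.5 and 1291 in those of sheep 209, against 1610.2 to 2536 in granulosa and 1110.5 to 2134 in theca of the other animals. In sheep 209 LGALS3BP lay inside the range of the other animals in both layers.

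CXCL10, the chemokine that draws T cells, stood apart from the others. Its granulosa values were 57.5, 90.4, 85.2, 79.1 and 1059.8 in prenatal T sheep, against 146, 99.3, 89.6 and 238 in control sheep. Its theca values were 6.33, 447, 497, 723 and 4977 in prenatal T sheep, against 345, 1077, 289, 432 and 680.3 in control sheep. Sheep 315 was again highest in both layers, but sheep 209 was lowest in both, and in granulosa sheep 230 and 276 also lay below every control. By limma it was the one gene of the 33 with a log2 change below 0 in both prenatal T comparisons, at -0.025 ± 0.81 in granulosa and -0.49 ± 1.37 in theca (SE), while edgeR and DESeq2 gave values above 0. Without sheep 209 the change by limma was above 0 as well, at 0.27 ± 0.79 in granulosa and 0.92 ± 0.65 in theca.

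Sheep 315 was set beside the median of the animals other than 209 and 315, on log2(normalized count + 1), as a description of 1 animal. In granulosa 30 of the 31 tested genes were more than 2-fold higher in sheep 315, with STAT2 the exception, where 9.44% of all 14724 genes were. In theca 33 of 33 were, where 5.96% of all 15492 genes were. The median difference of the tested genes was 4.02 in granulosa, or 16.2-fold, and 4.19 in theca, or 18.2-fold, beside -0.037 over all genes in granulosa. Over all 33 genes it ran from 0.59 for STAT2 to 9.70 for ISG15 in granulosa, and from 1.40 to 8.65 for the same genes in theca. More than 16-fold differences were seen for 18 genes in granulosa and 17 in theca. Over the 31 genes tested in both layers, the differences of granulosa and theca of this animal followed each other closely (Pearson r 0.98, Spearman rho 0.98). These points share the animal and the 2 libraries, and the correlation is only a description. The libraries of sheep 315 held 12699124 reads in granulosa, the fewest of any library, and 14063768 in theca.

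Sheep 209 gave a different profile. In granulosa 25 of 31 genes were more than 2-fold higher in sheep 209 than the median, where 21.6% of all genes were, and in theca 17 of 33, where 18.2% of all genes were. Its median difference was 2.17 in granulosa and 1.005 in theca. The differences ran from -0.97 for STAT2 to 6.49 for IFIT2 in granulosa and from -6.01 for CXCL10 to 4.57 for ISG15 in theca. Sheep 315 exceeded sheep 209 for 32 of 33 genes in granulosa and for 33 of 33 in theca, by a median of 2.15 and 2.86 on the log2 scale. IFI6 was 5.81 higher in sheep 315 in granulosa, the widest gap of that layer, while CXCL10 was 9.41 higher in theca.

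**Figure D3:**
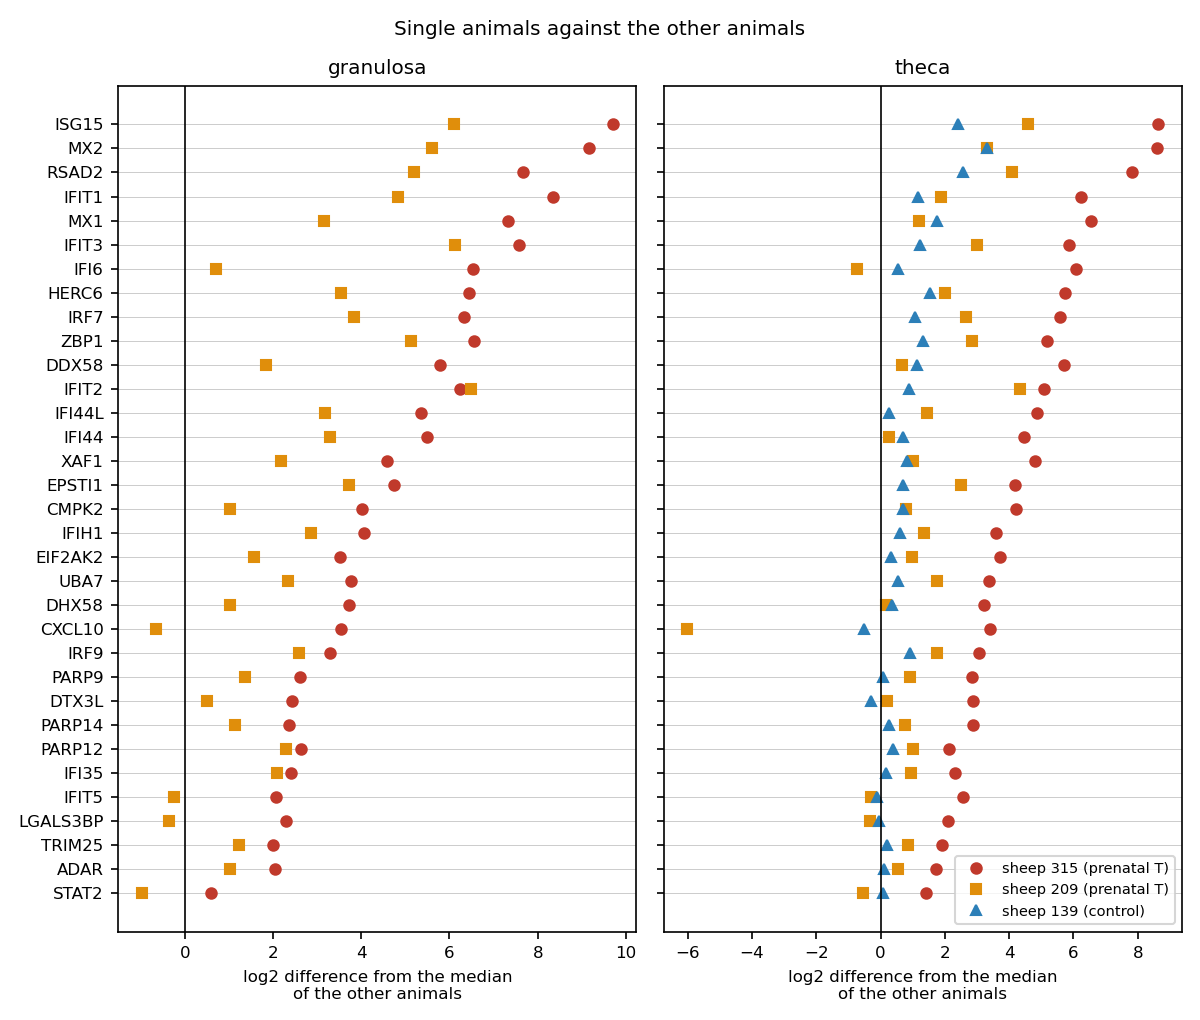
Difference of log2(normalized count + 1) of sheep 315 (circles), sheep 209 (squares) and control sheep 139 (triangles, theca only) from the median of the other animals for each of the 33 genes, with granulosa on the left and theca on the right. Sheep 315 lies above 0 at every gene, up to 9.70 for ISG15 in granulosa, and sheep 209 ranges from -6.01 to 6.49.

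Among the animals other than 209 and 315, control sheep 139 had the highest theca value for 23 of 33 genes, where it was highest for 14.2% of all genes. This animal was singled out after its values were seen. Its theca was more than 2-fold above the median of the 7 remaining animals for 10 of 33 genes, where 4.58% of all genes were, with a median difference of 0.62 and a highest of 3.31 for MX2. At the other end, prenatal T sheep 276 was lowest for 12 of 31 tested genes in granulosa, where it was lowest for 21.2% of all genes, and for 10 of 33 in theca, where it was for 14.5%. Immune cell markers had the same animals at their ends: their summed normalized counts were 288 in granulosa and 1108 in theca of sheep 276 and 3753 in theca of sheep 139, within ranges of 288 to 2233 and 1108 to 3753 over these animals. Whether immune cells had a part in these levels was not tested.

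No gene of the list passed the test of prenatal T against control in either layer. By limma on log2(normalized count + 1), with p adjusted by Benjamini-Hochberg over all genes, 0 of 31 members were called in granulosa, where 0% of 14724 genes were called, and 0 of 33 in theca, where 0% of 15492 genes were. At an unadjusted p under 0.05 the counts of members were 0 and 0, and those of all genes 622 in granulosa and 1192 in theca. By edgeR on recovered reads 0 members were called in each layer. At an unadjusted p under 0.05 by edgeR were 17 of 31 members and 835 of 14724 genes in granulosa. The counts in theca were 23 of 33 members and 1561 of 15492 genes. DESeq2 called 1 member, IFIT3, among 16 genes in granulosa, and 0 members among 7 genes in theca. At an unadjusted p under 0.05 by DESeq2 were 16 members among 1100 genes in granulosa and 12 among 1640 in theca. The smallest adjusted p of any member by limma was 0.875 in granulosa and 0.644 in theca.

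The direction of the group difference rested on sheep 209 and 315. In granulosa 30 of 31 members lay above 0 with a median log2 change of 1.22, beside -0.015 over all genes, and in theca 32 of 33 with a median of 1.01. Without sheep 209 the medians were 0.76 in granulosa and 0.92 in theca. Without sheep 315 they were 0.49 and 0.16. Without both sheep they were -0.028 and -0.069, with 13 of 29 and 15 of 32 tested members above 0. Only 3 prenatal T animals are then left, which limits the size of difference that can be seen.

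Named members show the spread behind these medians. MX1 averaged 6299 ± 12848 in prenatal T granulosa and 177 ± 81.01 in control granulosa (SD, n = 5 and 4), a log2 change of 2.32 ± 1.44 (SE, limma adjusted p = 0.875), which without both sheep was 0.28 ± 0.39. In theca MX1 averaged 7676 ± 15934 in prenatal T sheep and 551 ± 396 in control sheep (SD, n = 5 each), a change of 1.31 ± 1.14 (adjusted p = 0.748), which without both sheep was -0.19 ± 0.42. The SD was larger than the mean in both prenatal T groups. ISG15 had a log2 change of 3.27 ± 1.99 in granulosa and 2.38 ± 1.68 in theca, and in theca without both sheep of -0.31 ± 0.83. EIF2AK2 had a change of 1.24 ± 0.64 in granulosa (adjusted p = 0.875). It was the one tested member whose granulosa groups did not overlap, 1 of 31 where 0.72% of all tested genes had every prenatal T library above every control. Leaving out 1 animal gave a count of 5 without sheep 276, 3 without sheep 230, 2 without sheep 268 and 1 without any other. The share of all genes was not counted with an animal left out, in either layer. Fewer libraries make such a separation easier for any gene. Without both sheep the change of EIF2AK2 was 0.33 ± 0.12 (unadjusted p = 0.02201, adjusted p = 0.731 by limma). Sheep 210, 230 and 276 at 687, 708 and 755 stayed above the control values. In theca 0 of 33 members had every prenatal T library above every control, where 1.28% of all genes did, and 1 did without sheep 139 or without sheep 276. STAT2 in granulosa was the other member at an unadjusted p under 0.05 without both sheep, with a change of 0.41 ± 0.16 (unadjusted p = 0.0318, adjusted p = 0.731). In theca TRIM25 alone reached this, at -0.29 ± 0.12 (unadjusted p = 0.0315, adjusted p = 0.4898). These were picked out after their values were seen. Of the theca markers, COL1A2, COL1A1 and NR2F1 had the smallest p in granulosa of prenatal T against control, with log2 changes of -1.31, -1.56 and -0.97 (unadjusted p of 0.00274, 0.00609 and 0.0149 by limma), and none passed the adjustment. Their part in the members' values was not tested.

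The effect of prenatal T was not shown to differ between the layers for any member. With the animal as a block over the 9 animals with both layers, the difference of the effects was called by limma for 0 of 33 members, where 0% of 16169 genes were called and 755 had an unadjusted p under 0.05. Neither edgeR nor DESeq2 called a member. At an unadjusted p under 0.05 were 3 members by each, among 791 genes by edgeR and 869 by DESeq2. The 3 members by limma under that p, chosen for it, were IFI6 at 0.65 ± 0.22 (granulosa effect minus theca effect, log2), HERC6 at 0.99 ± 0.40 and MX2 at 1.21 ± 0.52, each with an adjusted p of 0.9599 by limma. Without sheep 209 they were 0.46 ± 0.13 for IFI6 (unadjusted p = 0.00641), 0.79 ± 0.37 for HERC6 (0.0596) and 0.86 ± 0.43 for MX2 (0.0722), and XAF1 came under 0.05 at -1.06 ± 0.38 (0.0186). The median difference of the effects over the members was 0.16 with all animals and 0.010 without sheep 209, with 24 of 33 and 17 of 32 members above 0.

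Between the layers, the interferon response genes that passed the test were for the greater part lower in granulosa than in theca of the same animal. By limma with the animal as a block, 17 of 33 members were called lower in granulosa, where 27.8% of 16169 genes were, and 2 of 33 higher, where 28.8% of genes were. The median log2 difference, granulosa minus theca, was -0.48 over the members, beside 0.028 over all genes. The mean of the 33 genes was lower in granulosa in 8 of 9 animals, by 0.47 to 1.15 on the log2 scale, and higher by 0.48 in sheep 209. Without sheep 209 and 315, 20 of 32 tested members were called lower, where 29.8% of 15707 genes were, and 3 higher, where 31.6% of genes were, and the median was -0.59. When the animal was left out of the fit, 0 members were called, among 5148 genes called in all.

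By role, the effectors include IFIT3 and IFIT1, the members with the widest layer differences. IFIT3 differed by 0.39, -2.48, -2.73, -5.14 and -1.02 in prenatal T sheep 209, 210, 230, 276 and 315, and by -2.88, -3.06, -2.55 and -2.28 in control sheep 224, 244, 246 and 268 (granulosa minus theca, log2). It was lower in granulosa in 8 of 9 animals, with an estimate of -2.42 ± 0.43 (SE, limma adjusted p = 6.01e-04). IFIT1 differed by -2.22 ± 0.36 (adjusted p = 3.20e-04) and IFIT2 by -1.61 ± 0.28 (adjusted p = 4.90e-04). Of the 9 effectors 6 were called lower, these 3 with IFIT5, MX1 and ADAR, while MX2, RSAD2 and CMPK2 did not pass. Of the 5 sensors ZBP1, IFIH1 and DHX58 were called lower, with ZBP1 at -2.06 ± 0.38, and DDX58 and EIF2AK2 were not called. Of the 8 genes of ubiquitin, ISG15 and ADP-ribose transfer only UBA7 and TRIM25 were called lower. IFI44, IFI44L, IFI6, EPSTI1 and CXCL10 were called lower too, CXCL10 with an estimate of -1.71 ± 0.52, though the difference was 2.998 in sheep 209. The factors parted: IRF9 was lower in granulosa, with an estimate of -0.75 ± 0.12 (adjusted p = 3.60e-04), and STAT2 higher, by 0.28 ± 0.11 (adjusted p = 0.0434). LGALS3BP was higher in granulosa in 9 of 9 animals, by 0.39 ± 0.068 (adjusted p = 5.20e-04). The call of STAT2 was lost when sheep 210, 224, 230, 244, 246 or 276 was left out.

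Markers of other cells moved with the layers as well. Immune cell markers were called lower in granulosa for 17 of 23 genes, and endothelial markers for 9 of 9, where 27.8% of all genes were. In the animals other than 209 and 315 the summed immune markers were 288 to 2233 in granulosa and 1108 to 3753 in theca, and the endothelial markers 1524 to 4038 in granulosa and 11600.3 to 19471 in theca. Their part in the layer difference was not tested.

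**Figure D4:**
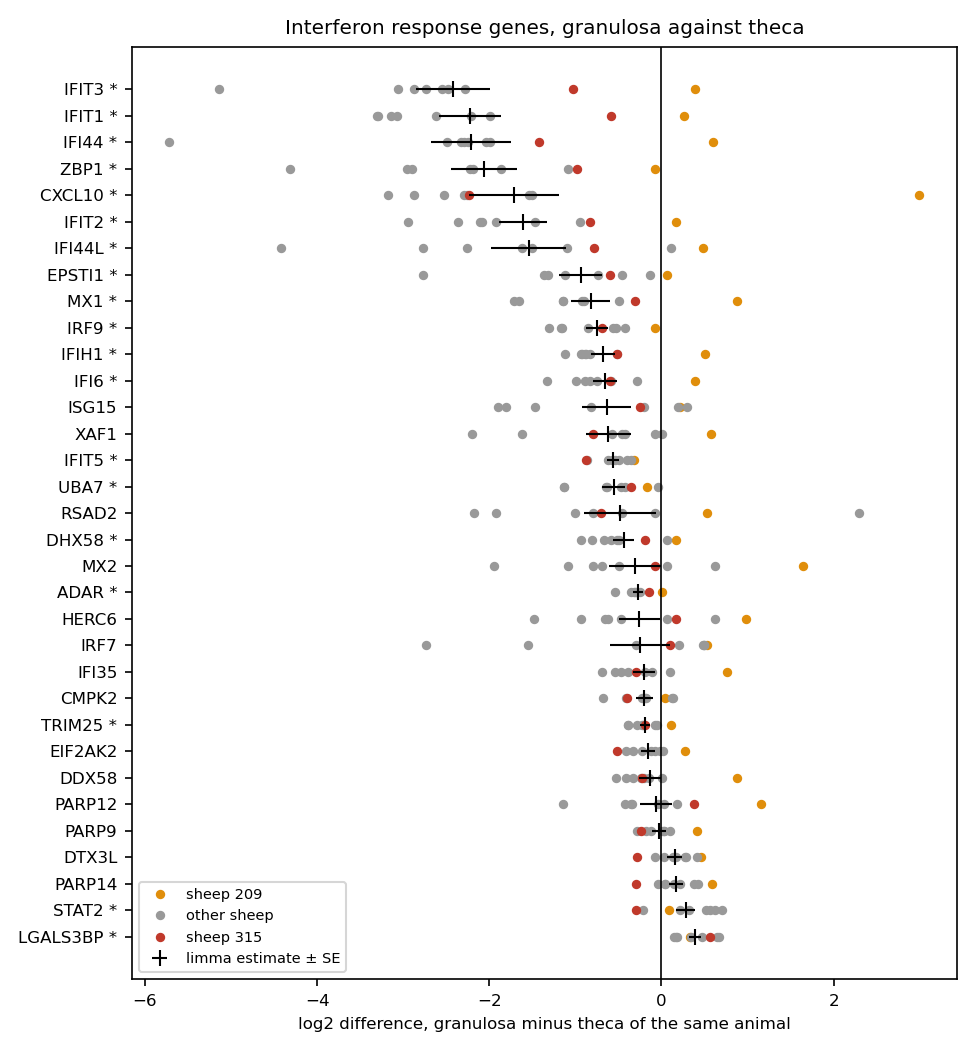
Granulosa minus theca difference of log2(normalized count + 1) for each of the 33 genes in each of the 9 animals (points) with the limma estimate ± SE (black), and * marking an adjusted p under 0.05. The estimates run from -2.42 for IFIT3 at the top to 0.39 for LGALS3BP at the bottom, and the points of sheep 209 lie right of most others.

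Upstream in the pathway, few ligands could be measured. IFNE, IFNK and IFNG were the interferons of the list present by name. IFNE, an interferon of the female reproductive tract, had 30.8 in granulosa and 18.2 in theca of sheep 315, against 9.797 to 69.5 and 0.934 to 19.1 in the animals other than 209. IFNG, the type II interferon of T and NK cells, had 0 in granulosa and 7.96 in theca of sheep 315, against 0 to 1.08 and 0 to 1.05. Theca of sheep 315 held the highest IFNG value of any library, though of only a few reads, and IFNE lay inside the range of the other animals in both layers.

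By their median, receptors and kinases lay nearer to the other animals in sheep 315 than the interferon response genes did. Over 11 genes of the receptors, kinases and STATs, the median log2 difference of sheep 315 from the other animals was 0.31 in granulosa and 0.23 in theca. IFNAR1, a chain of the type I receptor, had 2095 in granulosa and 1798 in theca of sheep 315, against 1193 to 2128 and 1295 to 1703, and so lay inside the range of the other animals in granulosa and just above it in theca. In sheep 209 8 of the 11 genes were more than 2-fold higher in granulosa and 7 in theca, where 21.6% and 18.2% of all genes were. The gamma receptor chain IFNGR1 stood at 8258 in granulosa of sheep 209, against 382 to 570.2. No gene of this list passed in either prenatal T comparison by limma. The unadjusted p was 0.233 for IFNGR1 and 0.268 for IFNAR1 in granulosa, and 0.0593 for IFNGR1 and 0.0991 for JAK2 in theca. Without sheep 209 the log2 change of IFNGR1 was 0.23 ± 0.17 in granulosa and 0.43 ± 0.15 in theca, against 1.03 and 0.89 with all animals, and 0 genes of the list were called.

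Sensors outside the list and their adaptors lay nearer to the other animals in sheep 315, by their median, than the interferon response genes did. The median difference was 0.59 over 17 genes in granulosa and 0.61 over 16 in theca. More than 2-fold higher were 7 of 17 in granulosa and 4 of 16 in theca, where 9.44% and 5.96% of all genes were. TLR7, the endosomal sensor of single-stranded RNA, had 79.3 in granulosa and 142 in theca of sheep 315, against 2.29 to 39.03 and 9.61 to 39.8. The kinase TBK1, which activates IRF3, had the smallest p of the list in a prenatal T comparison, in theca (log2 change 0.58 ± 0.15, unadjusted p = 0.00325, limma adjusted p = 0.644). TBK1 had 850.3, 619, 694, 496 and 789.6 in prenatal T theca, against 401, 453, 503, 473 and 436 in control theca, where sheep 276 lay below control sheep 244. Its change was 0.50 ± 0.14 without sheep 209. TRAF3, TLR3 and TBK1 in granulosa, and TLR7 and TLR3 in theca, came next with unadjusted p of 0.134, 0.208 and 0.208 in granulosa and 0.0963 and 0.144 in theca.

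Downstream, further interferon-induced genes outside the 33 were for the greater part higher in sheep 315. Of these, 29 of 43 were more than 2-fold higher in granulosa and 35 of 49 in theca, where 9.44% and 5.96% of all genes were. Their medians were 1.44 and 1.55 on the log2 scale. ZNFX1, a helicase that senses viral RNA, had 8864 in granulosa and 14951 in theca of sheep 315, against 723 to 1041 and 1132 to 1795 in the animals other than 209. SIGLEC1, an interferon-induced lectin of macrophages, had 302 and 1102, against 11.4 to 70.6 and 16.4 to 89.8. Both were chosen after their values were seen, and SIGLEC1 was low in sheep 209, at 9.21 in granulosa and 31.6 in theca. Genes of interferon gamma and antigen presentation were more than 2-fold higher in sheep 315 for 18 of 24 in granulosa and 14 of 25 in theca. B2M, the light chain of class I molecules, had 2798 in granulosa and 6209 in theca of sheep 315, against 417 to 923 and 1433 to 2322. Negative regulators such as SOCS1 were more than 2-fold higher for 3 of 18 genes in granulosa and 1 of 18 in theca, where 9.44% and 5.96% of all genes were. In theca this count was near the share of all genes. LOC101103965, described above as USP18, is also on the list of regulators but not among the 18. It had 2547 in granulosa and 3013 in theca of sheep 315, against 18.1 to 36.5 and 92.4 to 253. Some of these genes stand on more than 1 of the lists.

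In the prenatal T comparisons 0 genes of these downstream lists passed by limma. Those of smallest unadjusted p in granulosa were SP140, TRIM26 and NMI of the induced genes (0.01595, 0.0465 and 0.0748), ERAP2, PSME1 and PSME2 of antigen processing (0.00824, 0.0356 and 0.0406) and ATG5, TRIM27 and PIAS4 of the regulators (0.0186, 0.111 and 0.122). In theca they were NUB1, CXCL11 and CASP8 (0.01103, 0.0165 and 0.0227), ERAP2, CXCL11 and B2M (0.0105, 0.0165 and 0.0441) and ATG5, PIAS1 and TRIM27 (0.00788, 0.01299 and 0.0335). ERAP2, which trims peptides for class I molecules, had 1853, 785, 981, 767 and 1538 in prenatal T granulosa, against 726, 482, 429 and 614 in control granulosa, a log2 change of 1.01 ± 0.30 (limma adjusted p = 0.875). It had 822, 465, 619, 635 and 837 in prenatal T theca, against 523, 559, 334, 317 and 403 in control theca, so that every prenatal T library was above every control in granulosa while the groups overlapped in theca. Without sheep 209 the change of ERAP2 was 0.82 ± 0.25 in granulosa and 0.59 ± 0.21 in theca, and 0 genes of these lists were called in either layer. Without sheep 209 the unadjusted p by limma of SP140, TRIM26 and NMI in granulosa were 0.0160, 0.0674 and 0.130. Those of PSME1 and PSME2 were 0.0319 and 0.0591, and those of ATG5, TRIM27 and PIAS4 were 0.0235, 0.131 and 0.180. In theca NUB1, CXCL11, CASP8 and B2M then had 0.0145, 0.0291, 0.0314 and 0.0804. ATG5, PIAS1 and TRIM27 had 0.00467, 0.0226 and 0.0490 in theca.

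The 2 high animals differed outside the interferon lists. In sheep 209 the NF-κB and cytokine genes had a median difference of 5.60 in granulosa and 4.17 in theca, and in sheep 315 of 1.02 and 0.42. CXCL8, which draws neutrophils, had 17001 in granulosa of sheep 209 and 4.74 in that of sheep 315, against 0.556 to 9.395 in the others. Immune cell markers were more than 2-fold higher in sheep 209 for 16 of 16 genes in granulosa and 16 of 22 in theca, where 21.6% and 18.2% of all genes were. In sheep 315 the immune markers were higher for 14 of 16 genes in granulosa and 3 of 22 in theca, where 9.44% and 5.96% of all genes were. The interferon response genes were higher for 33 of 33 in theca of sheep 315. Summed immune markers were 3394 in granulosa and 3677 in theca of sheep 315, against 288 to 2233 and 1108 to 3753 in the animals other than 209, and 86356 and 63974 in sheep 209. In granulosa the sum of sheep 315 lay above that range and in theca inside it. FCGR1A, a receptor of macrophages that interferon gamma also induces, chosen after its values were seen, had 174 in granulosa and 209 in theca of sheep 315, against 3.44 to 57.8 and 20.1 to 88.9. Epithelial markers were more than 2-fold higher for 7 of 7 genes in granulosa of sheep 209, and for 5 of 7 in that of sheep 315. In theca they were higher for 7 of 7 in sheep 209 and 1 of 7 in sheep 315. What part such cells had in the interferon response genes of these animals was not tested.

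**Figure D5:**
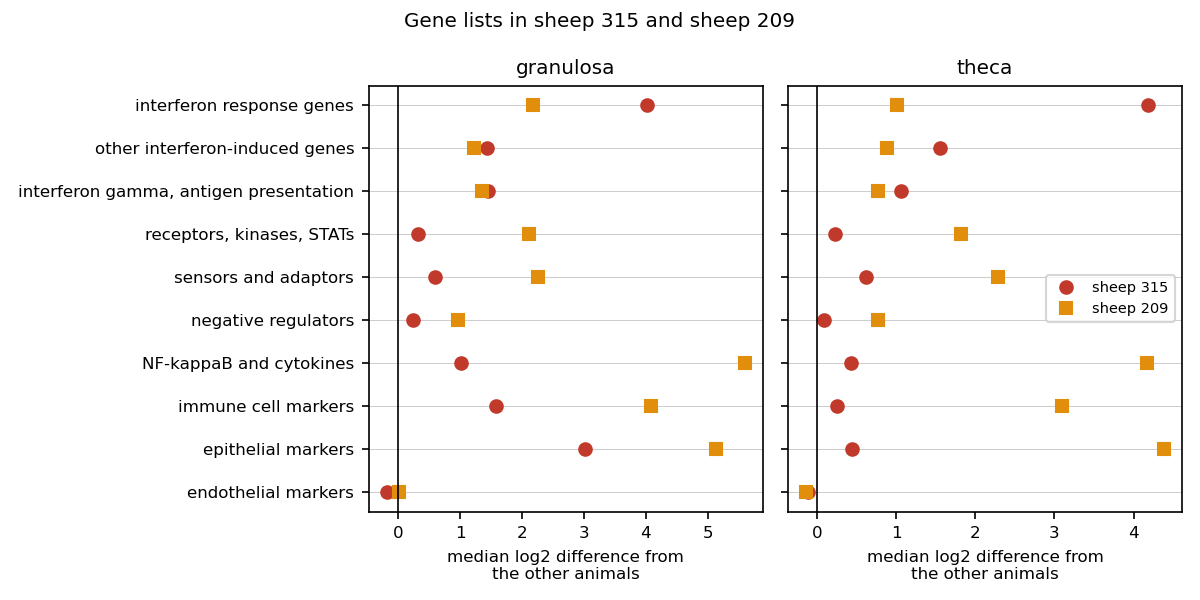
Median over the tested genes of each list of the log2 difference of sheep 315 (circles) and sheep 209 (squares) from the median of the other animals, with granulosa on the left and theca on the right. In sheep 315 the interferon response genes lead in both layers, at 4.02 and 4.19, and in sheep 209 the NF-κB genes lead in granulosa at 5.60 and the epithelial markers in theca at 4.39.

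Genes of the whole table were ranked by how far sheep 315 lay above the highest of the other animals without sheep 209, taking the smaller of the gaps in granulosa and theca on log2(normalized count + 1). Of 14914 genes ranked, 155 had a gap over 1 in both layers, among them 32 of the 33 interferon response genes, and 22 of the 33 stood in the top 50. The list was chosen with sheep 315 known, so this is a description. The 15 genes outside the 33 with the widest gap were mostly identifiers without a symbol. Among those with a name were BST-2A and BST-2B, which carry the name of the tethering protein that BST2 encodes. BST-2A had 2828 in granulosa and 2543 in theca of sheep 315, against at most 11.5 and 77.2 in the other animals without sheep 209. BST-2B had 3430.4 and 3263, against at most 97.4 and 87.8. In sheep 209 BST-2A was only at 19.6 and 27.8. RTP4, an interferon-induced chaperone of receptors, had 2329 and 2683, against at most 64.6 and 145. OXT, which encodes oxytocin and is no interferon gene, had 2011 and 238, against at most 58.1 and 16.01. The rest were LOC101103965, described above as USP18, and LOC114113694, LOC101109915, LOC114108712, LOC114108618, LOC101112122, LOC105602911, LOC106991530, LOC114114482, LOC101112306 and LOC114110138, with gaps of 3.40 to 5.89 over the 15. Reads of near-identical copies, such as BST-2A and BST-2B or members of the IFIT and MX families, may have been shared between rows.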

How the data were processed

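The study sequenced granulosa and theca cells of 10 sheep, 20 samples by the labels, and 19 libraries were used (granulosa of sheep 139 was not analysed here). The deposited values are signal, gene counts the authors had scaled by library size factors. Per the submitters' processing notes FastQC 0.11.5, MultiQC 0.9, STAR 2.6.0c, featureCounts (Subread 1.6.1) and DESeq2 were used, with a build not given in the sources used here. All values were whole multiples of 1 step per library (relative tolerance 1e-06), so whole reads were recovered, and 0 columns of values lacked a sample. Intervals and floors of 3 reads cover counting error only.

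Genes reaching 10 in 5 or more libraries entered limma 3.58.1 (R 4.3.3, mean-variance trend) on log2(value + 1), two-sided, with Benjamini-Hochberg adjustment over all genes at 0.05, a scale that understates changes of low genes. Layers of an animal are paired by the sheep number in the labels, so the layer and difference fits hold the animal as a block. edgeR 4.0.16 and DESeq2 1.42.0 were run on recovered reads, and the other settings tried are given at the end. The tests were checked on simulated data. Libraries of separate animals are the replicates. RefSeq's gene table for ARS-UI_Ramb_v3.0 served for names only. No promoter or protein sequence was used here. Every listed gene present was named, 14 of them and LOC101103965 with all library values, with the 3 genes of smallest p of each pathway list and the 15 most alike genes, except for 1 gene that is not reported here. Members and lists were chosen with earlier results of these data known.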

Additional observations from a re-analysis of the deposited data

Results flagged for a closer look

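Libraries whose highest or lowest value stood far from the rest of its group were marked with Dixon's ratio, the gap to the nearest other library divided by the range of the group, against the published limit for the size of the group. Of 60 groups of values examined 10 passed, where chance marks about 1 group in 20, and groups of the same animals are not independent.

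Sheep 315 was the high library in theca of the prenatal T group for MX1 (ratio 0.766), EIF2AK2 (0.734) and DDX58 (0.839), and in prenatal T granulosa for CXCL10 (0.846).  Control sheep 139 was the high library in control theca for MX1 (0.8), MX2 (0.827) and the mean of the 33 genes (0.768). In granulosa of controls, EIF2AK2 was low in sheep 246 (ratio 0.874), at 509 where the other controls had 587, 591 and 599. STAT2 was high in control granulosa of sheep 244 (0.949), and ADAR was low in control theca of sheep 246 (0.777).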

How the results depend on the processing

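By limma 0 members were called for prenatal T in either layer under a pseudocount of 8, no filter on low values, TMM factors, or leaving out any 1 animal. DESeq2 on recovered reads called 16 genes in granulosa, 1 of them a member (IFIT3, log2 change 5.89), 7 in theca and 20 for the difference of the effects. With all libraries in 1 fit and the animal as a replicate block, 1 gene and 0 members were called in granulosa, and 0 in theca. For granulosa against theca 0 members and 5148 genes were called with no replicate block. With 1 animal left out, 18 to 24 members were called, among 8331 to 10000 genes called in all. Without sheep 209 both counts were highest, at 24 of 32 members and 10000 of 15923 genes.

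Counts of members with every prenatal T library above every control, a measure and its alternatives chosen after seeing the data, were 1 to 5 in granulosa when 1 animal was left out (5 without sheep 276, 3 without sheep 230, 2 without sheep 268) and 0 to 1 in theca (1 without sheep 139 or sheep 276). The shares of all genes under these leave-outs were not counted, so the counts cannot be set beside them. Without sheep 209 and 315 together the log2 change of prenatal T turned below 0 for 15 of 29 members in granulosa and 17 of 32 in theca. Among the genes shown by library these were in granulosa IFIT1 (-0.26), IFIT3 (-0.44), IRF7 (-0.028), IRF9 (-0.48) and ADAR (-0.082). In theca they were MX1 (-0.19), MX2 (-1.10), ISG15 (-0.31), DDX58 (-0.12), IRF7 (-0.66), IRF9 (-0.46) and ADAR (-0.20), and CXCL10 turned above 0 (0.12). Leaving out 1 animal gave -0.16 to 2.33 for MX2, -0.11 to 0.38 for STAT2 and -0.010 to 0.51 for ADAR in theca, the lowest without sheep 315. CXCL10 changed sign with the tool and without sheep 209: in granulosa it was 0.97 by edgeR, 0.96 by DESeq2, 0.061 with the replicate block and -0.78 to 0.27 with 1 animal left out. In theca it was 1.22, 1.23 and -1.44 to 0.92 for edgeR, DESeq2 and the leave-outs. The cause was not tested. Genes of a few reads, among them RSAD2, ZBP1 and ISG15 in granulosa, are limited by depth.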

Other observations

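Granulosa of sheep 315 also lay above the animals other than 209 in some genes of follicle maturation, picked out after their values were seen. Of all tested genes 16.97% did so in that library. CYP19, which encodes aromatase, had 4069 in granulosa of sheep 315, against 43.4 to 1767 in the 7 animals other than 209 and 315. INHBA, a subunit of activin and inhibin, had 60870.2, against 2807 to 51113, and INHA had 38080.4, against 7238 to 28936. AMH, a product of smaller growing follicles, had 3652, inside a range of 2629 to 7774. Of 10 granulosa markers 4 were more than 2-fold higher in granulosa of sheep 315, where 9.44% of all genes were. Their median log2 difference was 0.46. FSHR went the other way, since keeping sheep 315 lowered its group change. The log2 change of FSHR, prenatal T against control in granulosa, was 0.34 without sheep 209 and 315. It was 0.038 without sheep 209 alone, with sheep 315 kept. The cytokine LIF had 107 in granulosa of sheep 315, against 0.9797 to 31.1. How the stage of the pooled follicles relates to the interferon response genes was not tested.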
